A study of Oryza sativa with 6 samples.

Results

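The most abundant loci of developing seeds of the rice cultivar N22 are described here, a locus being a gene position of the authors' long-read transcriptome with all its isoform models. Loci were chosen by their mean level over the 6 libraries, which had to be at least 1000 CPM (read counts relative to library size, scaled with edgeR's TMM factors). This gave 107 of 13343 loci, or 0.802%, and all 107 had been reconstructed on the N22 genome. The mean level chose these loci, so that they are abundant is not a result. N22 is an aus rice known for its tolerance of drought and heat. Plants grew in a field in the Philippines, and developing seeds were taken at early grain filling from 3 control replicates, kept flooded, and 3 replicates under heat and drought together, with rain kept off by a shelter. All plants were of the same unmodified cultivar, and the 6 RNA libraries were read by single-end Illumina sequencing of directional libraries. The study calls them biological replicates, and neither it nor the labels say how plants were pooled, so p-values measure the spread between these samples.

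Filling rice grains build starch and storage proteins in the endosperm and oil in the aleurone and embryo, and glutelins and prolamins, the storage proteins of the endosperm, come from multigene families whose transcripts are among the most abundant of the seed. Heat and drought during filling are known to disturb starch deposition, while late embryogenesis abundant proteins, among them the dehydrins, accumulate as seeds mature and when tissues lose water. The deposited identifiers carry no gene names, and the study's functional annotation of the transcriptome was not used here. The text of the study names B12288 as RAB21, a dehydrin gene. The other loci are given by identifier and structure alone, lists of storage, starch or marker genes were not matched, and the labelled tissue was not checked against its defining genes. In whole seeds, fewer cells of a type and less RNA per cell cannot be told apart.

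The limit fell where levels were continuous. The last locus inside was B6005, with a mean of 1002.2 CPM, and the first outside was B8960, with 995.7 CPM. Both condition means were over the limit for 81 loci, the stressed mean alone for 21 and the control mean alone for 5, and 70 loci were over it in every library. Loci over the limit in 1 condition only passed through the condition in which they were high.

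Totals ran from 20623937 to 24625001 estimated counts per library. The lowest count of any abundant locus in a library was 8802, for which counting error alone was 1.07%, so the spread between replicates, not depth, set the precision. TMM factors were 1.10, 1.13 and 1.20 in the controls and 0.842, 0.884 and 0.904 in the stressed libraries. Because these factors separate the conditions, a direction measured in CPM depends on them, and values with library size alone, which follow the plain share of counts, are given beside those of the main named loci.

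The abundant loci held a larger part of the library under stress. Their summed share of all estimated counts was 45.1, 42.8 and 41.4% in the controls and 51.3, 51.2 and 51.7% in the stressed libraries. The 2 conditions did not overlap, and the stressed libraries lay closer together than the controls. The mean rose from 43.1% ± 1.89 (SD, n = 3) to 51.4% ± 0.282 (SD, n = 3), a difference of 8.27 percentage points with an exact two-sided permutation p of 0.1, the smallest that 3 against 3 allows, so this test cannot pass 0.05. The loci were chosen on the same libraries, and 21 of them entered only through the stressed mean against 5 only through the control mean, so the set leans towards loci high under stress. For the 81 loci over the limit in both conditions, a subset added after the data were seen, the share was 42.5, 40.0 and 38.9% in controls and 47.0, 47.5 and 48.6% under stress, a difference of 7.21 points. Shares need no TMM factor. Counted in TPM, kallisto's transcript abundance corrected for isoform length, the share was 49.3% ± 2.25 (SD, n = 3) in controls and 57.8% ± 0.324 (SD, n = 3) under stress.

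**Figure D1:**
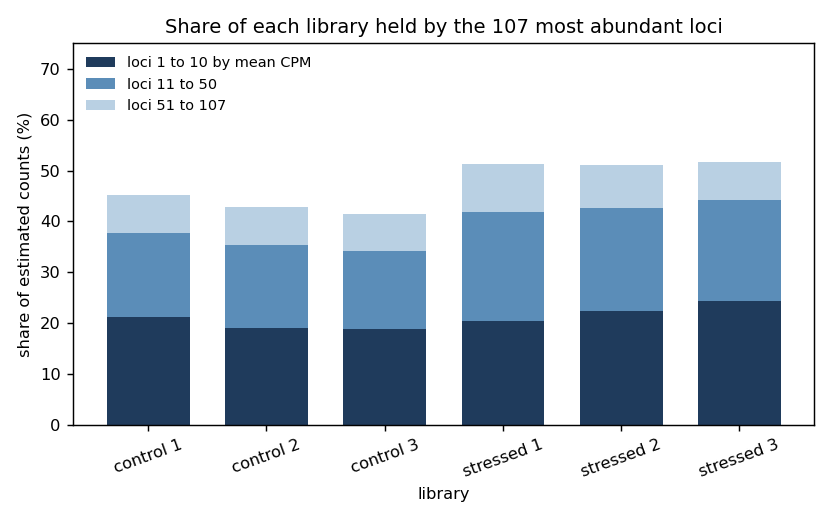
Share of each library's estimated counts (%) held by tiers of loci, in 3 control and 3 stressed libraries. The 107 abundant loci together hold 41.4 to 45.1% of the control libraries and 51.2 to 51.7% of the stressed ones.

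The very first loci were not separated between the conditions. The first 4 held 13.4, 11.4 and 11.0% of the control libraries and 12.4, 14.5 and 16.3% of the stressed ones, which overlapped (exact permutation p = 0.2, n = 3 per condition). The first 10 also overlapped, at 19.7% ± 1.30 in controls and 22.4% ± 1.96 under stress (SD, n = 3; exact permutation p = 0.2). Loci 11 to 50 held 16.0% ± 0.557 in controls and 20.4% ± 0.806 under stress without overlap (SD, n = 3; exact permutation p = 0.1). Loci 51 to 107 held 7.40% ± 0.178 and 8.57% ± 0.980 (SD, n = 3; exact permutation p = 0.1). All loci over the limit in 1 condition only, 21 under stress and 5 in controls, lay in this tier. Its share was therefore favoured towards stress by the choice of loci. The 7538 loci at 10 to 100 CPM held less of the stressed libraries, at 28.7% ± 1.14 in controls and 22.8% ± 0.343 under stress (SD, n = 3).

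Of the 107 loci, 71 had a larger mean share under stress, adding 11.02 percentage points, and 36 a smaller one, with a summed change of -2.75 points. The 3 largest gains were at B8938 with 1.15, B1276 with 1.03 and B6962 with 0.745 points. The 3 largest losses were at B5063 with -0.400, B2550 with -0.316 and B9910 with -0.188 points.

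The 4 most abundant loci, B1276, B8938, B11488 and B2411, held ranks 1 to 4 in all 6 libraries, in 1 order in 5 of them; in control 2, B2411 stood above B11488. B1276, with 6 isoform models and a leading model of 1752 bp, measured 36142, 29484 and 27792 CPM in the controls and 47722, 52401 and 56173 CPM under stress. Every stressed library was above every control, and its log2 fold change was 0.74 ± 0.22 (SE; edgeR adjusted p = 0.0287). With library size alone the log2 fold change was 0.37 and did not pass (edgeR adjusted p = 0.158). Its share of counts was 3.98, 3.32 and 3.33% in controls and 4.02, 4.63 and 5.08% under stress, apart by little.

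B8938, with 7 models and a leading model of 794 bp, measured 35662, 25281 and 24104 CPM in the controls and 45426, 52180 and 51769 CPM under stress. With TMM factors control 1, the highest control, was below all stressed libraries (log2 fold change 0.81 ± 0.24 (SE), edgeR adjusted p = 0.0254). By share of counts the conditions overlapped, with 3.92% in control 1 and 3.83% in stressed 1, and with library size alone the log2 fold change was 0.44 (edgeR adjusted p = 0.113). B11488 measured 25342, 22613 and 21858 CPM in controls and 29258, 33513 and 36946 CPM under stress, without overlap on this scale (log2 fold change 0.51, edgeR adjusted p = 0.0939). Its shares overlapped, and with library size alone the log2 fold change was 0.14 (edgeR adjusted p = 0.587). B2411 measured 24796, 23334 and 17920 CPM in controls and 24709, 26129 and 35155 CPM under stress. Its conditions overlapped and it did not pass (log2 fold change 0.38, edgeR adjusted p = 0.252).

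B4747, which had 42 isoform models, the most of any abundant locus, measured 12068, 11244 and 12207 CPM in controls and 23032, 17363 and 15571 CPM under stress. Its conditions did not overlap in CPM (log2 fold change 0.66, edgeR adjusted p = 0.0449). B8235, a single-model locus of 970 bp, and B4553 were also apart in CPM, with log2 fold changes of 0.56 (edgeR adjusted p = 0.0642) and 0.64 (edgeR adjusted p = 0.0447). By share of counts all of B4747, B8235 and B4553 overlapped, and with library size alone their log2 fold changes were 0.27, 0.19 and 0.26 (edgeR adjusted p = 0.290, 0.447 and 0.305).

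B2550 lay at 15301, 14332 and 13083 CPM in controls and 11796, 15057 and 17596 CPM under stress, overlapping (log2 fold change 0.06, edgeR adjusted p = 0.870).

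B5063 had the lowest fold of the first 10, at 13622, 11108 and 11988 CPM in controls and 10247, 11565 and 12160 CPM under stress (log2 fold change -0.11, edgeR adjusted p = 0.717). Those CPM values overlapped. Its share of counts did not, being 1.50, 1.25 and 1.44% in controls and 0.863, 1.02 and 1.10% under stress, and it went from rank 6 to rank 14. B13207 measured 5833, 10996 and 8606 CPM in controls and 21183, 11812 and 9413 CPM under stress, where stressed 1 stood far above the rest (log2 fold change 0.74, edgeR adjusted p = 0.117, and 0.32 without stressed 1). Of the first 10, 6 passed the adjusted p of 0.1 with edgeR, none reached a log2 fold change of 1, and the median was 0.60. With library size alone none of these 6 passed, with log2 fold changes of 0.14 to 0.44 and edgeR adjusted p of 0.113 to 0.587, and 5 of the 6 overlapped by share of counts. The locus of the first 10 that passed with library size was B5063, with a log2 fold change of -0.49 (edgeR adjusted p = 0.0578).

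**Figure D2:**
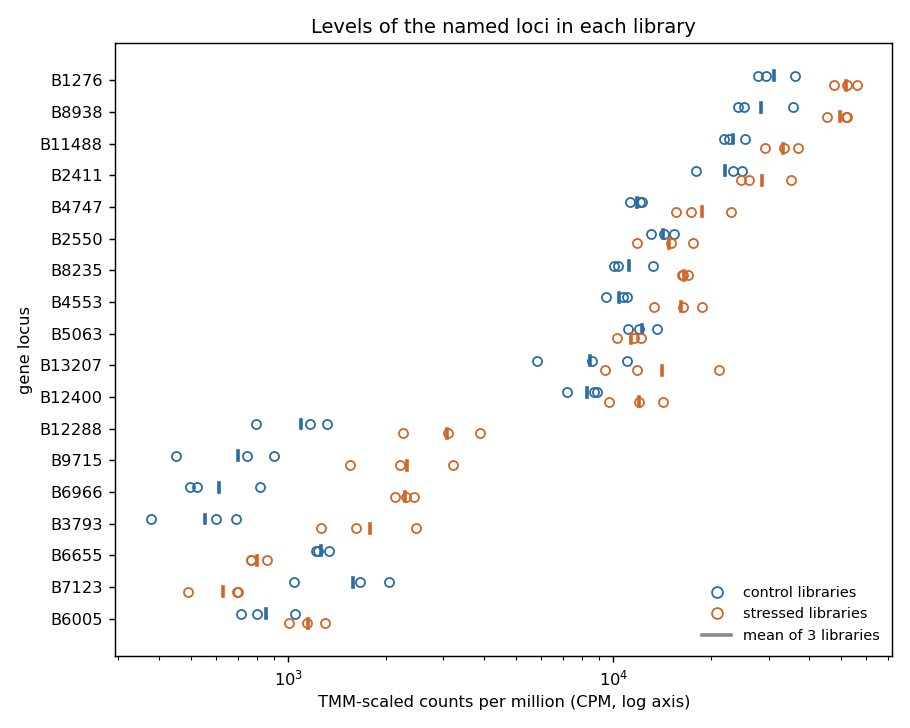
Level of the named abundant loci (CPM, log axis) in each library, controls and stressed libraries in different colours and vertical bars at the means of 3 libraries. B6966, B9715, B3793 and B12288 have all stressed points above all control points, and B7123 and B6655 all below.

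Called here means both thresholds of the study were passed, an adjusted p under 0.1 and a log2 fold change of 1 or more in size. All 107 loci were among the 12726 tested. Of them 31, or 29.0%, were called with edgeR's quasi-likelihood test, against 10% of all loci tested. The calls were nearly all in 1 direction. Levels rose at 30 abundant loci (28.0%, against 4.8% of all tested) and fell at 1 (0.935%, against 5.23%). By adjusted p alone 59 passed with edgeR, against 38.6% of all tested, of which 54 were higher and 5 lower, against 19.6% and 19%. With edgeR's glmTreat, which tests whether the log2 fold change exceeds 1, 3 passed, B6965, B6966 and B6968, against 1.53% of all tested. All 3 belong to the range B6962 to B6968 described below, and their counts were not whole, so they may share reads. B6966 and B6968 were over the limit only under stress.

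The median log2 fold change of the 107 loci was 0.62, with quartiles of 0.14 and 1.15, beside -0.02 for all loci tested. Positive values were found at 89 loci and negative at 18, beside 48.2% positive of all tested. Conditions did not overlap at 59 loci that were higher and 9 that were lower, against 23.1% and 22.7% of all tested. Among the 81 loci over 1000 CPM in both conditions, which did not need 1 condition to enter, 14 were called higher (17.3%) and 0 lower with edgeR. The other 16 calls of higher level were at loci over the limit only under stress.

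Calls were spread unevenly over the tiers. None of the first 10 was called, 11 of loci 11 to 50 were higher (27.5%), and 19 of loci 51 to 107 were higher (33.3%) with 1 lower. Of those in loci 51 to 107, 16 called higher were over the limit only under stress and the 1 lower only in controls. The choice of loci thus favoured calls in this tier. In the next tier, the 1091 loci at 100 to 1000 CPM, 136 were higher (12.5%) and 22 lower (2.02%). Differences between these tiers were not tested.

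**Figure D3:**
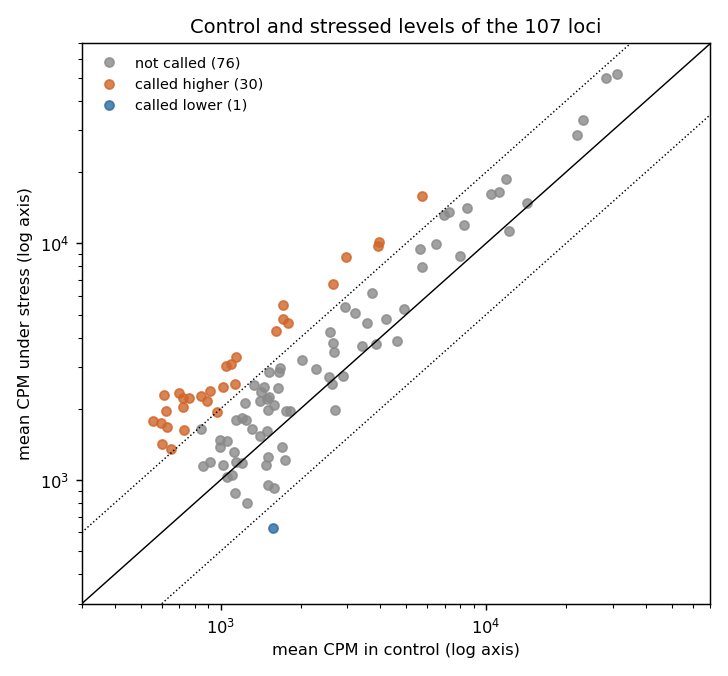
Mean level under stress against mean level in controls (CPM, both axes log) for the 107 abundant loci, each point 1 locus, called loci coloured, with a solid line of equal levels and dotted lines at a log2 fold change of 1 either way. The 30 loci called higher lie above the line of equal levels, and B7123 is the called locus below it.

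With library size alone as the scaling, 22 of the 107 loci were called, 18 higher and 4 lower, against 1.93% and 12% of all tested. The 18 were all among the 30 above, and the 4 lower were B7123, B2659, B5032 and B6655. This scaling moved the median of all loci tested from -0.02 to -0.40 and that of the abundant loci from 0.62 to 0.24. Relative to the median of all loci, the abundant ones lay 0.64 higher under either scaling. Changing the scaling moves all loci by nearly the same amount, so this difference could hardly change and is no separate support. A further 18 loci were positive with TMM and negative with library size, and none of them was called. Non-overlap moved too, to 37 loci higher and 23 lower, against 8.09% and 53.2% of all tested. In TPM, which carries no TMM factor either, 33 did not overlap and were higher and 27 lower, against 6.26% and 59.8%.

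**Figure D4:**
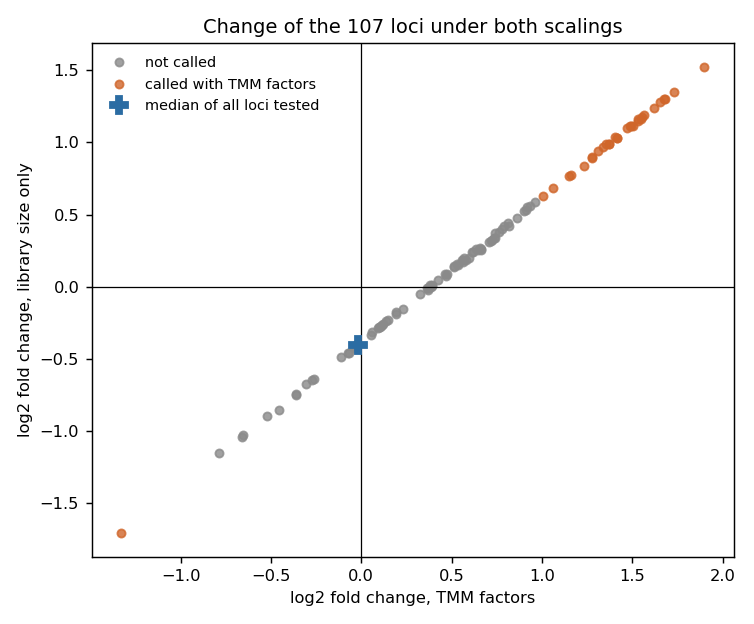
Log2 fold change (stressed over control) of the 107 abundant loci with TMM factors and with library size alone, each point 1 locus, the cross marking the median of all loci tested. Values with library size are lower at every locus, and 18 loci lie on the positive side with TMM and the negative side without.

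B12288, annotated by the study as RAB21, belongs to the dehydrins, hydrophilic proteins of the late embryogenesis abundant class that are induced by abscisic acid and water loss and accumulate in maturing seeds. It measured 1316, 1163 and 795 CPM in controls and 3882, 3093 and 2255 CPM under stress. The lowest stressed library was above the highest control. The mean was 1091 ± 268 CPM in controls and 3077 ± 814 CPM under stress (SD, n = 3), a log2 fold change of 1.50 ± 0.26 (SE; edgeR adjusted p = 0.0019), and 1.12 with library size alone (edgeR adjusted p = 0.0024). It went from rank 82 to rank 41, and from 0.124% to 0.268% of the counts. Per length it measured 1673 ± 386 TPM in controls and 3393 ± 615 TPM under stress (SD, n = 3). The log2 fold change lay between 1.29, without stressed 1, and 1.68, without stressed 3.

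The largest rise by the naming rule was at B6966, a single model of 666 bp, with 816, 498 and 523 CPM in controls and 2433, 2293 and 2130 CPM under stress. The stressed libraries agreed closely, and the log2 fold change was 1.90 ± 0.22 (SE; edgeR adjusted p = 0.000263), or 1.53 with library size alone. It also gained the most ranks, from 146 to 58. The control mean of B6966 was 612 CPM, so it passed the limit only under stress, and the choice of loci favoured a rise. B9715, of 2 models, measured 902, 746 and 450 CPM in controls and 3211, 2203 and 1546 CPM under stress (log2 fold change 1.73 ± 0.32 (SE), edgeR adjusted p = 0.00359). Its stressed libraries differed more among themselves, stressed 1 being the highest, and the log2 fold change was 1.42 without that library and 1.35 with library size alone. With a control mean of 699 CPM, B9715 also passed the limit only under stress.

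B3793 gained the next most ranks, from 160 to 78, and also passed the limit only under stress, its control mean being 556 CPM. It measured 599, 691 and 377 CPM in controls and 2474, 1612 and 1264 CPM under stress (log2 fold change 1.68, edgeR adjusted p = 0.00246), with 1.37 without stressed 1 and 1.30 with library size alone.

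B7123, with a leading model of 2993 bp, was the only abundant locus called lower. It measured 1040, 2042 and 1658 CPM in controls and 492, 698 and 697 CPM under stress. All stressed libraries were below all controls, and the log2 fold change was -1.33 ± 0.26 (SE; edgeR adjusted p = 0.00355), or -1.71 with library size alone. It fell from rank 54 to rank 184, and passed the limit only in controls, its stressed mean being 629 CPM. B6655 lost the next most ranks, from 69 to 150, and also passed only in controls, its stressed mean being 799 CPM. Its 1230, 1220 and 1336 CPM in controls and 768, 770 and 861 CPM under stress did not overlap, with a log2 fold change of -0.66 (edgeR adjusted p = 0.0125), or -1.04 with library size alone.

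Over all 107 loci, 50 gained rank, 49 lost rank and 8 kept it, with a median absolute change of 12 places. The first 107 places of the controls held 95 of these loci and those of the stressed libraries held 96.

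Length went with direction among the abundant loci, a division made after the values were seen. The 30 loci called higher had leading models of 299 to 1708 bp, with a median of 944 bp, and the 5 that were lower by adjusted p alone had leading models of 1711 to 3039 bp. The median log2 fold change was 0.74 in the 48 loci under 1000 bp, 0.64 in the 45 from 1000 to 2000 bp and 0.03 in the 14 longer ones. Across the 107 loci Spearman's rho of length with log2 fold change was -0.39, and across all loci tested it was 0.01. These points share libraries, and genes are not independent replicates.

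The abundant loci included runs of adjacent identifiers, and 3 of these ranges were picked after their values were seen, so they carry no test. The sources do not say whether the numbers follow genome position. In B6962 to B6968, all 7 loci were called higher with edgeR, with log2 fold changes of 1.47 to 1.90. Their leading models were short, at 299 to 738 bp, with 1 or 2 models each. Together they held 2.12, 1.43 and 1.39% of the control libraries and 3.59, 3.72 and 3.85% of the stressed ones.

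The 7 abundant loci from B8961 to B8968 were also short, at 693 to 874 bp, and none was called. Their log2 fold changes were 0.10 to 0.79, and their summed share was 2.78, 2.13 and 2.55% in controls and 2.37, 2.93 and 2.56% under stress, overlapping. The 12 loci from B13154 to B13214 held 2.74, 4.85 and 4.001% of the controls and 6.44, 3.84 and 3.25% of the stressed libraries, so the replicates of each condition differed more than the conditions did. Stressed 1 was the highest stressed library in 11 of the 12, the exception being B13154, and 1 of them, B13213, was called higher (log2 fold change 1.23).

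**Figure D5:**
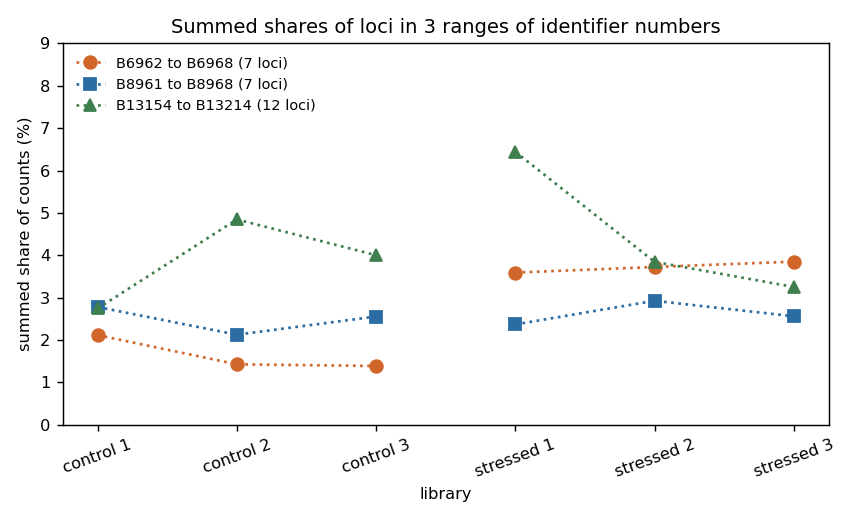
Summed share of counts (%) in each library for 3 ranges of identifiers, chosen after their values were seen. The range from B6962 holds 1.39 to 2.12% in controls and 3.59 to 3.85% under stress, while the range from B13154 is highest in stressed 1, at 6.44%.

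Stressed 1 was the highest stressed library at 63 of the 107 loci, beside 38.3% of all loci tested, and at 24 of the 30 called higher. The order stressed 1, stressed 2, stressed 3 was found at 52 loci (48.6%, beside 23.6% of all tested). Leaving out stressed 1 kept 27 of the 31 calls, and leaving out any other library kept 29 to 31. Control 3 was the lowest control at 26 of the 30. No share over all loci tested is set beside that count, so it is not read as a trait of these loci.

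Ranks above are by CPM, which a longer transcript raises, so levels of different loci are set beside each other per length. The 4 loci at the head by CPM, B1276, B8938, B11488 and B2411, were at ranks 3, 1, 8 and 5 by TPM. By TPM, B8938 was at rank 1, with 48808 ± 10248 in controls and 61977 ± 9279 under stress (SD, n = 3), and B13207 was at rank 2, with 23209 ± 6685 and 26611 ± 9339 (SD, n = 3). B1276 was at rank 3, with 21335 ± 2678 and 25807 ± 4152 TPM (SD, n = 3). The levels of B13207 and B1276 lay within each other's spread. B6962, at rank 11 by CPM, was at rank 4 by TPM, with 11788 ± 3451 in controls and 23582 ± 2230 under stress (SD, n = 3).

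Abundant loci carried more isoform models than others. A single model was listed for 24 of the 107 (22.4%), beside 75.3% of all loci, and more than 5 models for 24 (22.4%), beside 1.10%. Models were reconstructed from long reads, whose number per locus was not analysed here. In 83 loci with several models, the leading model held over 90% of the counts in 52 and under 50% in 3.

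No abundant locus was called for a difference in isoform usage. It was tested in 75 abundant loci with edgeR's diffSpliceDGE, and 0 were called at an adjusted p under 0.1, beside 0.834% of the 2517 loci tested. At so low a share 75 loci give hardly any calls, so 0 is not read as a trait of these loci. An unadjusted p under 0.05 was found at 7 of the 75, beside 4.01% of the 2517. The lowest adjusted p was 0.117, at B12400, which had 20 models and whose leading model B12400.13 held 70.2% ± 2.54 of its counts in controls and 63.7% ± 4.94 under stress (SD, n = 3). At B4747 the leading model held 33.4% ± 0.488 and 33.5% ± 2.13 (SD, n = 3). Over the 83 loci the median absolute change of the leading share was 0.351 points.

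Reads that fit several models are divided by kallisto, which leaves counts that are not whole. A read divided among models of 1 locus adds up again in that locus's total. A total that is not whole may thus come from reads shared with other loci. It may also come from rounding of the deposited estimates, which is coarser at high counts. These were not told apart. Counts were within 0.1 of a whole number in all 6 libraries at 46 of the 107 loci (43.0%), beside 90.1% of all tested, and at 1 of the first 10, B8235. This share fell with abundance. It was 10% in loci 1 to 10, 20% in loci 11 to 50, 64.9% in loci 51 to 107 and 85.8% at 100 to 1000 CPM. The contrast with all loci therefore cannot be told apart from abundance, and whole values at B8235 do not exclude shared reads. At the other 61, near-identical copies may have shared reads and single values are less certain, B1276, B8938 and all but 1 of the B6962 to B6968 loci included. So were all but 1 of the 7 loci from B8961 to B8968 and all 12 from B13154 to B13214. Among the 46, 16 were called higher and 0 lower with edgeR, against 4.8% and 5.23% of all loci tested.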

How the data were processed

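Per the labels and the study's methods, estimated abundances were made by the authors with kallisto 0.45 on an N22 transcriptome rebuilt from PacBio long reads. The deposited values are estimated counts per locus and per isoform model, with TPM and model lengths. Trimming is not given in the sources used here. All 6 libraries were used. Estimated counts were rounded and fitted in edgeR 4.0.16 under R 4.3.3 (TMM factors, a filter at a minimum count of 10, robust quasi-likelihood test, Benjamini-Hochberg adjustment over 12726 loci), with DESeq2 1.42.0 and limma 3.58.1 on log2 TPM with a pseudocount of 1 or 0.1 as alternatives. The scripts were tested on simulated data. Depth was 20623937 to 24625001 counts per library. Other scalings, filters, membership limits, a replicate block and leaving out each library were also tried. Named loci were B12288, the 10 most abundant, the largest called changes, the 2 with the most models, the 2 largest gains and losses in rank, and the loci at the limit; others named were chosen after their values were seen. The members and lists were chosen with earlier results of these data known. Replicate numbers were checked as pairs: deviations of same-numbered libraries correlated at 0.20, 0.028 and 0.30, and those of different-numbered ones at -0.28 to 0.14. These values do not settle whether the numbers mark pairs. The main fit did not treat them as pairs, and a fit with the number as a block is given below. Coordinates and sequences were not used here.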

Additional observations from a re-analysis of the deposited data

How the results depend on the processing

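Limits on these results include 3 libraries per condition, the scaling and reads that may be shared between loci (61 of the 107). The membership limit is another, as 21 loci passed it only under stress. The number of the 107 loci called was 31 with edgeR, and 31 were called with the replicate block, all shared with the fit without it. DESeq2 and RLE factors each gave the same 31 loci. It was 20 with limma on TPM at either pseudocount (15 higher, 5 lower), 59 by adjusted p alone (54 higher, 5 lower) and 3 with edgeR's glmTreat against a log2 fold change of 1 (3 higher, 0 lower). With library size alone 18 were higher and 4 lower. With a limit of 500 CPM 54 of 197 loci were called (52 higher, 2 lower). With 2000 CPM it was 12 of 51 (12 higher, 0 lower). With both condition means over the limit 14 of 81 were called (14 higher, 0 lower). With whole counts only it was 16 of 46 (16 higher, 0 lower), and with the limit set on TPM 28 of 108 (28 higher, 0 lower). These counts follow from the loci each limit admits, beside 10% called of all loci tested. Without 1 library the calls ranged from 28 to 38, the higher from 27 to 37 and the lower from 1 to 1; calls lost without some library were B5676, B5972, B10070 and B13213, whose lowest log2 fold changes were 0.95, 0.96, 0.89 and 0.92. The share difference ranged from 7.41 to 9.28 points without 1 library and was 7.21 for the loci over the limit in both conditions, an alternative added after the data were seen, and isoform usage calls from 0 to 2. Of 323 values of named loci, 307 kept their direction and whether both thresholds were passed. A locus never called counts as kept even where its adjusted p crossed 0.1. B1276 did so with library size alone (edgeR adjusted p = 0.0287 and 0.158). Of the others, 4 lost the call with glmTreat (B12288, B9715, B7123 and B3793). A call was gained by 4 (B8938 at 1.01 without control 1, B6655 at -1.04 with library size and -1.12 with limma), and 8 reversed. The cause was not tested. The reversed were B2411 at -0.10 with limma, B2550 at -0.31 with library size, -0.44 with limma and, without 1 library, from -0.085 (without stressed 3) to 0.20, and B6005 at -0.041 with limma.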
